A study of Mus musculus with 5 samples.

Results

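The genes described here are the kinases, adaptors and transcriptional effectors of the Hippo pathway in mouse embryonic stem cells given siRNA against Dhx30 or Tfam. They are 10 genes fixed by name: LATS1, LATS2, STK3, STK4, SAV1, MOB1A, MOB1B, YAP1, TEAD1 and TEAD2, written in capitals as in the table. The set was partly selected on measured values, because LATS2 had been noted as higher than the negative control in all 4 siRNA libraries. Values against that control are therefore given as a description, without a test. Of the 10 genes 9 were in the table of 12930 genes, all with a value in each library, and LATS1 was not analysed here. All 12088 genes with 4 values entered the fit.

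OG2 cells gave 5 RNA-seq libraries, with 2 replicates for siDhx30, 2 for siTfam and a single negative control, NC. The strain label of all of them names (CBA/CaJxC57BL/6J) and, as female mice, 129Sv/Jae. Cells of every group grew for 24 h in N2B27 medium with CHIR99021 at 3 µM, PD0325901 at 1 µM and LIF at 1000 U/ml, which keep embryonic stem cells in the naive state. They were then transfected at 50 nM siRNA and moved for 36 h to medium holding 12.5 ng/ml bFGF, 20 ng/ml Activin A and 1% knockout serum replacement. The RNA is thus of cells that had left the naive medium 36 h before, and their state by then was not established. Dhx30 encodes an RNA helicase of mitochondrial RNA granules, and Tfam the packaging and transcription factor of mitochondrial DNA. The labels do not say whether replicates were separate cultures, so their spread may be technical.

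The Hippo pathway is a kinase relay that restrains growth. The MST kinases, encoded by STK3 and STK4, bind the scaffold SAV1 and phosphorylate the LATS kinases and their MOB1 partners. Active LATS kinases phosphorylate the co-activator YAP1, which is then held in the cytoplasm or degraded. Unphosphorylated YAP1 enters the nucleus and binds TEAD proteins on DNA. In the early mouse embryo this relay separates inner cells from the outer trophectoderm, and in embryonic stem cells YAP1 and TEAD2 are known for a part in pluripotency. LATS2 is itself a known target of YAP1 and TEAD, as part of a feedback loop.

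Each deposited value is a log2 ratio of 1 siRNA library, read here as being against NC, and the headings state no direction. The direction was taken from the missing values. All 1574 values of the 842 incomplete genes lay below 0 as deposited, while all 102 genes with a value above 3 were complete. To read a direction from this, a value was assumed to be missing only where neither NC nor that siRNA library had reads. That assumption was not checked. On it the signs were turned, so that positive means higher in the siRNA library than in NC. Every direction below, including that of the differences between the siRNAs, would be the opposite if this reading were wrong. The siDhx30 libraries had DHX30 at -0.40 and -0.20, the siTfam libraries at 0.01 and 0.04, a difference of -0.33 (SE 0.16). The siTfam libraries had TFAM at -0.28 and -0.02, the siDhx30 libraries at 0.12 and -0.01, a difference of 0.20 (SE 0.18). Neither target passed the limma test between the siRNAs (adjusted p = 0.999 for both), so a knockdown was not established at the RNA level. The depth of each library is unknown, and ratios carry no level, so the cell type could not be checked against marker levels. Of 12 pluripotency markers 3 had values (ESRRB, SALL4 and DNMT3B), with medians of 0.05 in siDhx30 and -0.13 in siTfam. These medians do not establish the state of the cells.

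LATS2 stood apart from the other members. The kinase gene (ENSMUSG00000021959.16) spans 57689662 to 57758388 of chromosome 14 on the minus strand in GRCm38. Its log2 ratio was 2.07 and 2.49 with siDhx30, and 2.07 and 1.41 with siTfam. All 4 libraries lay well above NC, and siTfam replicate 2 was the lowest. The means were 2.28 ± 0.21 in siDhx30 and 1.74 ± 0.33 in siTfam, where the error is the distance of either library from the mean, or 487% and 335% of NC. Over the 4 libraries the mean was 2.01, a level 4.04 times that of NC. Among all 12088 genes 34 had a higher mean. The other 8 members lay between -0.35 and 0.82 in every library. All 4 ratios share the same NC library, so they are not 4 independent observations of a difference from NC.

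**Figure D1:**
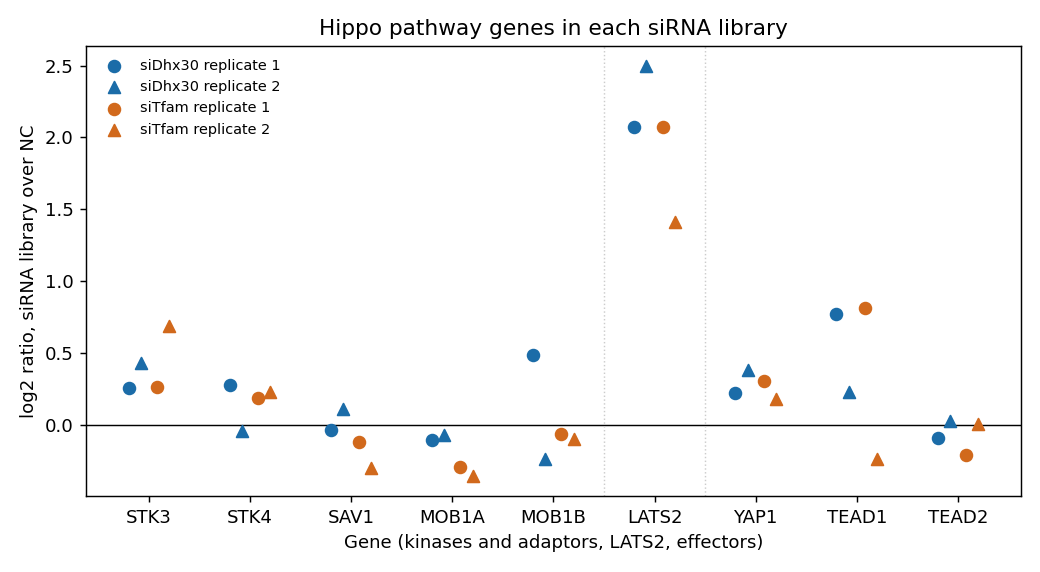
Log2 ratio of each siRNA library over NC (vertical axis) for the 9 Hippo pathway genes (horizontal axis). Each point is 1 library: blue for siDhx30, orange for siTfam, circles for replicate 1 and triangles for replicate 2. LATS2 sits between 1.41 and 2.49, and every other point lies between -0.35 and 0.82.

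The LATS2 promoter is shown because the gene is a known YAP1 and TEAD target. RefSeq (GRCm38.p6) gives 2 start sites. The capitals mark the core motif that TEAD proteins bind, GGAATG, which was searched on both strands (its other strand reads CATTCC). Each window runs from 120 bases before the start to 30 bases after it, on the minus strand of chromosome 14. The first is chr14:57746094-57746243 and the second is chr14:57734389-57734538.
LATS2 upstream start: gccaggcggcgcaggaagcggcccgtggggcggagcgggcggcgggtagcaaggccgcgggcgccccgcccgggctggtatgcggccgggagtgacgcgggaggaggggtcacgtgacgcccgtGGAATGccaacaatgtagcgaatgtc
LATS2 downstream start: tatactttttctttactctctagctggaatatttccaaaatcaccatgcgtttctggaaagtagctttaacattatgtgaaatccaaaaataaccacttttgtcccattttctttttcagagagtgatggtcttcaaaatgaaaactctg
The upstream window held 1 match, beginning 4 bases after the first transcribed base, and was rich in CG dinucleotides, with 21 in 150 bases. The downstream window held none of these matches and 1 CG dinucleotide. In RefSeq windows from 250 bases before to 50 after a start, 14.7% of all 32851 windows held the motif. Of the 8 members with such a window, LATS1 among them, 4 held it: LATS2, YAP1, SAV1 and MOB1A. The match is a description of these letters, and no binding was measured.

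LATS2 is also a textbook target of the microRNAs that embryonic stem cells make in quantity, the miR-290 and miR-302 families. Those with a shared seed, AAGUGCU at bases 2 to 8, are shown from RefSeq with the seed in capitals, and beside them the 30-base stretches of the LATS2 3′ UTR that match it, with the matching AGCACTT in capitals. The RefSeq table held 5 mature miRNAs with this seed, of which 3 are given.
mmu-miR-291a-3p: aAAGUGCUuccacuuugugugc
mmu-miR-294-3p: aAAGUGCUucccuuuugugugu
mmu-miR-302b-3p: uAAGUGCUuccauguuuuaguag
LATS2 site at base 195 of the 3′ UTR: gtacagtatggaaagAGCACTTattttgtg
LATS2 site at base 294 of the 3′ UTR: tgtgttgtatctgatAGCACTTgtccacag
The sites lie at chr14:57691079-57691108 and chr14:57690980-57691009 (GRCm38, minus strand), in the 1626-base 3′ UTR of the GENCODE M21 Lats2 transcript that is 5191 bases long. Within the first 1626 bases of the 6887 mouse 3′ UTRs of at least that length, 17.6% held 1 or more matches on the transcript strand and 1.64% held 2 or more. Mature miRNAs were not measured. Of the precursor rows with this seed, MIR294 lay below NC in all 4 libraries (-1.45 and -0.96 in siDhx30, -1.09 and -0.52 in siTfam). MIR295 lay above NC in all 4 (1.13, 0.26, 1.59 and 0.93 in the same order), and MIR291A lay on both sides (-0.17, 0.08, 0.13 and -0.91). These precursors are neighbours in 1 cluster on chromosome 7, and their rows had unlike ratios.

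Part of the LATS2 transcript is shared with another annotated gene. On the same strand GENCODE M21 annotates Gm49361, a coding gene that shares exons with Lats2 and continues towards Xpo4. It shares 2955 of the 5191 bases of that Lats2 transcript, 56.9%, and 42.4% of all annotated Lats2 exonic bases. Gm49361 was not among the gene names used here, and the sources used here do not give how reads in the common exons were counted. The LATS2 value is uncertain in that respect. The nearest measured coding genes did not share its ratio. Xpo4, an exportin gene downstream, lay at 0.51, 0.13, 0.23 and -0.28 with siDhx30 first, and Sap18 upstream lay at -1.04, -0.94, -0.50 and -0.71 in the same order.

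**Figure D2:**
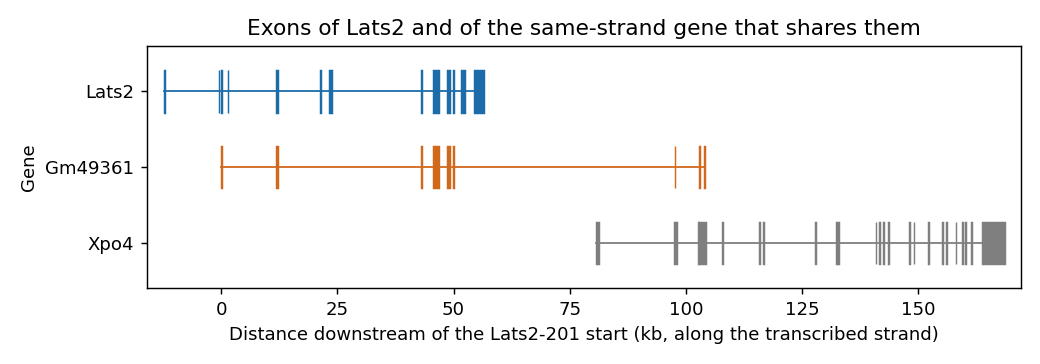
Annotated exons (boxes) of Lats2, Gm49361 and Xpo4 by distance in kb downstream of the start of the 5191-base Lats2 transcript, along the strand that is transcribed. Gm49361 uses exons of Lats2 and of Xpo4, and shares 56.9% of the bases of that transcript.

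Ratios as high as that of LATS2 were mostly incomplete in the table. Counting genes whose present values were all at or above 1.41, the lowest LATS2 value, there were 379, of which 340 lacked a value in some library and 39 were complete, LATS2 included. The genes nearest to LATS2 over the 4 ratios, by Euclidean distance and with predicted genes left out, were PARP8, PRDM11, PCDH18, IMMP2L and KCNAB2, at distances of 0.62, 0.70, 0.86, 0.88 and 0.91. PARP8 lay at 2.37, 2.55, 1.68 and 1.79, again with siDhx30 first. Of the 50 nearest genes, a number chosen after the values were seen, 54% were predicted genes named GM and 36% were coding genes, against 15.6% and 76.6% of all complete genes.

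In GRCm38 (GENCODE M21) the other measured members lie apart from LATS2: STK3 at chr15:34875496-35178921, STK4 at chr2:164070322-164155524, SAV1 at chr12:69965012-69987002, MOB1A at chr6:83326016-83343776, MOB1B at chr5:88720855-88764220, YAP1 at chr9:7931999-8004596, TEAD1 at chr7:112679318-112906807 and TEAD2 at chr7:45215753-45233644. Among the MST kinases, STK3 (MST2) lay at 0.26 and 0.43 with siDhx30, against 0.26 and 0.69 with siTfam. It was above NC in every library, with siTfam replicate 2 the highest, and its 4-library mean of 0.41 is 133% of NC. STK4 (MST1) lay at 0.28 and -0.04 with siDhx30, against 0.19 and 0.23 with siTfam, a mean of 0.16. The paralogues had close ratios in the libraries numbered 1, and STK3 was the higher in both libraries numbered 2.

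The adaptors lay between -0.35 and 0.48. SAV1, the scaffold that joins MST to LATS kinases, lay at -0.03 and 0.11 with siDhx30, against -0.12 and -0.30 with siTfam. Both siTfam libraries were below both siDhx30 libraries. The opposite-strand gene Atl1 shares 25.4% of the annotated SAV1 exonic bases, and no source used here states whether the counting used strand. ATL1 lay at 0.95, 0.95, 0.90 and -0.09, unlike SAV1. MOB1A, a LATS co-activator, lay at -0.11 and -0.07 with siDhx30, against -0.30 and -0.35 with siTfam, below NC in all 4 and lower in both siTfam libraries. Its paralogue MOB1B lay at 0.48 and -0.24 with siDhx30, against -0.06 and -0.10 with siTfam, so siDhx30 replicate 1 alone was above NC. How reads common to paralogues were assigned is not given.

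Of the effectors, YAP1 was the most even. It lay at 0.22 and 0.38 with siDhx30, against 0.31 and 0.18 with siTfam, above NC in all 4 with overlapping groups, and its mean of 0.27 is 121% of NC. TEAD1, one of its DNA-binding partners, lay at 0.77 and 0.23 with siDhx30, against 0.82 and -0.24 with siTfam. The libraries numbered 1 were the higher in both groups, and the TEAD1 range of 1.06 over the libraries was close to that of LATS2, 1.08. TEAD2, the TEAD gene known for high expression in embryonic stem cells, lay at -0.09 and 0.03 with siDhx30, against -0.21 and 0.01 with siTfam. It lay near NC throughout, with a mean of -0.07.

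Ordered by the 4-library mean, the members ran LATS2 (2.01), STK3 (0.41), TEAD1 (0.39), YAP1 (0.27), STK4 (0.16), MOB1B (0.02), TEAD2 (-0.07), SAV1 (-0.09) and MOB1A (-0.21). Below LATS2, each neighbour in this order differed from the next by less than the range of its own 4 libraries. Of the 9 members 3 were above NC in all 4 libraries (LATS2, STK3 and YAP1), where 20.1% of all genes were. LATS2 had been noted for this same trait, so its place in that first count was fixed in advance. Of the other 8 members, the first count held STK3 and YAP1 only. In all 4 libraries 1 member was below NC (MOB1A), where 22.4% of all genes were. The lowest YAP1 value, 0.18, was just inside the first count, and STK4, with 1 value at -0.04, just outside. At an absolute ratio of at least 0.1 in every library, LATS2, STK3 and YAP1 still counted as above and no member as below. Of all genes 11.9% were above and 13.5% below at that threshold. The median of the member means, LATS2 included, was 0.12 in siDhx30 and 0.21 in siTfam, against -0.01 and -0.02 over all genes. It was 0.0064 in siTfam without siTfam replicate 1 and 0.26 in siDhx30 without siDhx30 replicate 2.

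If the deposited values are plain log2 ratios against NC, the difference between siDhx30 and siTfam does not contain the NC library. The settings behind the values are not given, so that condition was not checked. The noted LATS2 values were against NC, so the difference between the siRNAs was tested. Earlier results of these data were nonetheless known when the genes were chosen. The test asks whether these genes were at another level under one siRNA than under the other. No member passed the limma test with Benjamini-Hochberg adjustment over all genes, where 0% of the 12088 genes were called, and the adjusted p was 0.999 for each of the 9. No member had an unadjusted p under 0.05, as 337 of all genes (2.79%) had. LATS2 was higher in siDhx30 by 0.54 (SE 0.31, 95% interval -0.34 to 1.42). Taken between libraries of the same number, it was 0.0028 for number 1 and 1.08 for number 2. Without siTfam replicate 2 it was 0.21, and without siTfam replicate 1 it was 0.87. The interval is wide on both sides of 0, so equal LATS2 levels were not shown.

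The remaining differences were smaller. SAV1 had one of 0.25 (95% interval -0.21 to 0.71), MOB1A 0.24 (-0.17 to 0.64), TEAD1 0.21 (-1.04 to 1.47) and MOB1B 0.20 (-0.63 to 1.03). TEAD2 lay at 0.07 (-0.40 to 0.54), YAP1 at 0.06 (-0.39 to 0.50), STK4 at -0.09 (-0.60 to 0.42) and STK3 at -0.13 (-0.74 to 0.47). The SEs of the members ran from 0.15 for MOB1A to 0.45 for TEAD1, against a median of 0.20 over all genes. In LATS2, SAV1 and MOB1A both siDhx30 libraries lay above both siTfam libraries, 3 of 9 members where 14.7% of all genes did so. In 0 of 9 did both lie below, where 14.3% of all genes did. The LATS2 groups were parted by 0.0028, the gap between siDhx30 replicate 1 and siTfam replicate 1.

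**Figure D3:**
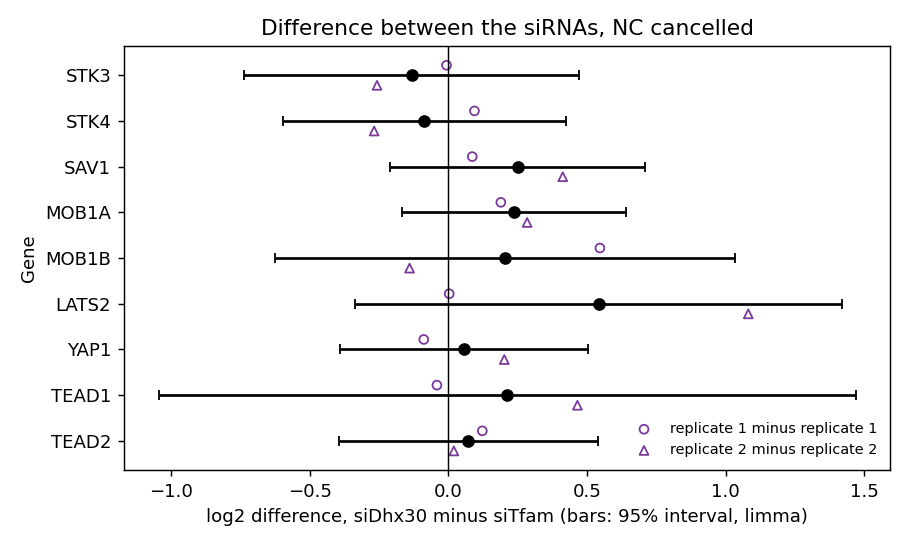
Log2 difference, siDhx30 minus siTfam (horizontal axis), for each gene: filled points with bars are limma estimates with 95% intervals, open circles the libraries numbered 1 and open triangles those numbered 2. Every interval includes 0, and the LATS2 difference is 1.08 between the libraries numbered 2 and 0.0028 between those of number 1.

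Other genes of the pathway were taken from lists of 97 genes, of which 72 were in the table and 71 had 4 values. None was called between the siRNAs, and none had an unadjusted p under 0.05. Of the 71, 11 were above NC in all 4 libraries and 13 below, where 20.1% and 22.4% of all genes were. Upstream kinases that can phosphorylate MST or LATS kinases gave 9 measured genes, with medians of -0.03 in siDhx30 and 0.07 in siTfam. TAOK2, which phosphorylates MST kinases, lay at -0.22, -0.18, -0.17 and -0.60, siDhx30 first here and below. MINK1, of the MAP4K group, lay at -0.26, -0.11, -0.25 and -0.22, and its relative MAP4K2 at 0.16, 0.11, 0.06 and 0.39. The kinases sit on both sides of NC, and share no direction.

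Scaffolds and junction proteins that gather the kinases at the membrane or bind YAP1 gave 23 measured genes. TJP1, the tight junction protein ZO-1, lay at -0.52, -0.52, -0.56 and -0.50, the most even of the named genes. AMOT, angiomotin, which binds YAP1 at junctions, lay at -0.22, -0.69, -1.66 and -0.95, below NC in all 4 and lower in both siTfam libraries. Its siDhx30 minus siTfam difference was 0.84 (SE 0.33, limma adjusted p = 0.999), and its relative AMOTL1 lay at -0.26, -0.29, -0.17 and -0.44. DLG5, a polarity scaffold, lay at 0.44, 0.52, 0.18 and 0.37, on the other side of NC.

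All 23 of these scaffold genes had a higher fitted value in siDhx30 than in siTfam, where 49.8% of all genes did. The differences ran from 0.0029 to 1.00, with a median of 0.10 against -0.0015 over all genes, and none passed the test. Leaving out siDhx30 replicate 2 gave 16 of 23, as did leaving out siTfam replicate 1. Leaving out siDhx30 replicate 1 gave 21 and leaving out siTfam replicate 2 gave 20. Libraries numbered 1 gave 18, and libraries numbered 2 gave 20. With trends on transcript length and GC content removed it was 16 of 23, at a median of 0.0480, where 46.4% of all genes were higher. The count was chosen after its values were seen and is a description of these libraries.

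Inhibitors of the kinases, meaning the STRIPAK phosphatase complex and the LIM proteins that bind LATS, gave 19 measured genes. Of these, 5 were above NC in all 4 libraries and 0 below, where 20.1% and 22.4% of all genes were, with medians of 0.04 in siDhx30 and 0.05 in siTfam. PPP2R1B, a phosphatase scaffold, lay at 0.23, 0.19, 0.16 and 0.18, and the striatin STRN3 at 0.30, 0.51, 0.33 and 0.15. PDCD10, an adaptor of the MST-like kinases STK24 to STK26, lay at 0.07, 0.28, 0.11 and 0.39. Among 9 genes for YAP1 retention and turnover the medians were -0.02 and -0.05. FBXW11, a ubiquitin ligase subunit that recognises phosphorylated YAP1, lay at -0.28, -0.10, -0.17 and -0.57. Of the 14-3-3 proteins, which hold YAP1 in the cytoplasm, YWHAZ lay at -0.16, -0.08, -0.20 and -0.07, YWHAQ at -0.24, -0.21, -0.21 and -0.06, and YWHAG at 0.0021, 0.07, 0.13 and 0.07. The NDR kinase STK38, a LATS relative, lay at 0.10, 0.07, 0.15 and 0.04.

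**Figure D4:**
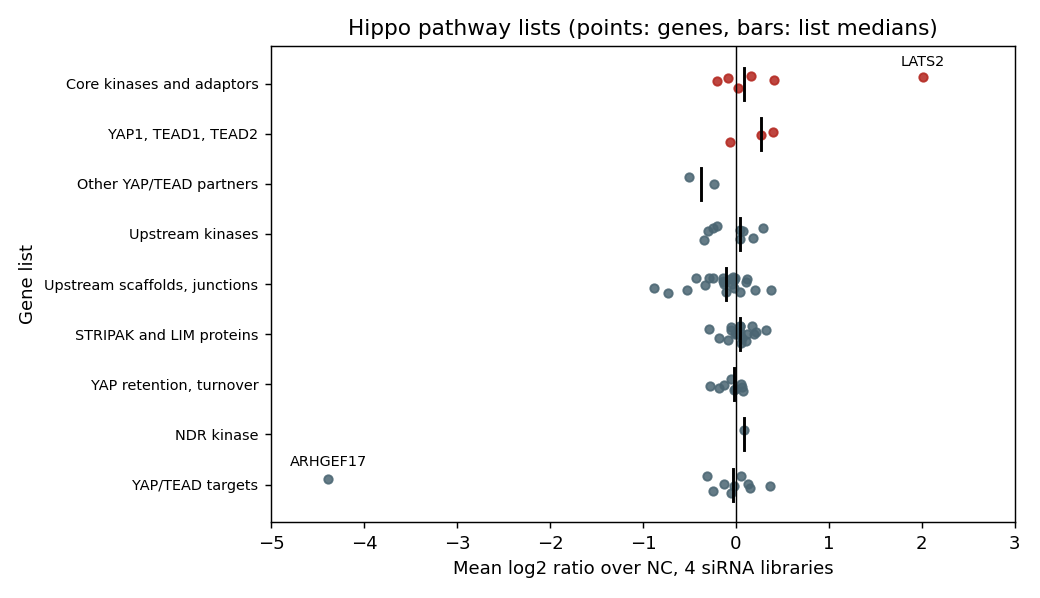
Mean log2 ratio over NC across the 4 siRNA libraries (horizontal axis) for the genes of each Hippo pathway list (vertical axis), red for the 9 members and grey for other genes, with list medians as bars. LATS2 at 2.01 and ARHGEF17 at -4.39 lie far from all other points.

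Transcripts that YAP1 and TEAD are known to induce lay on both sides of NC. Of 21 listed targets 10 had 4 values, and the most used reporters of the pathway, CCN1, CCN2 and ANKRD1, were not analysed here. Medians of the 10 were 0.04 in siDhx30 and -0.07 in siTfam, with 1 gene above NC in all 4 libraries and 2 below, against 20.1% and 22.4% of all genes. NUAK2, a kinase in a feedback loop with YAP1, lay at 0.26, 0.11, 0.35 and 0.74. ARHGEF17 lay at -4.38, -4.35, -4.58 and -4.23, an extreme row, with 12086 of all 12088 genes at a higher mean. AMOTL2, an angiomotin relative, lay at -0.24, -0.0013, -0.15 and -0.13. LATS2, also a target, had been noted as above NC in all 4 libraries, so its side was fixed in advance. ARHGEF17 lay on the opposite side of NC in every library. The 4 ratios of each gene share the single NC library, so the libraries do not repeat that contrast independently. Of the other YAP1 and TEAD partners 2 had 4 values, with medians of -0.21 and -0.54, and both lay on either side of NC.

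Markers of other cell types were sparse in the table. Of 10 primitive endoderm markers 5 had 4 values, with medians of -0.21 in siDhx30 and -0.70 in siTfam. In fitted value 5 of 5 were higher in siDhx30 than in siTfam, where 49.8% of all genes were. In 2 of the 5 both siDhx30 libraries lay above both siTfam libraries, where 14.7% of all genes did so. Of 8 fibroblast and feeder markers 4 had values, with medians of 0.06 and -0.0029, and of 8 trophoblast markers 1 had. Higher in siDhx30 were 2 of the 4 fibroblast and feeder markers, 0 of 1 trophoblast marker and 2 of the 3 pluripotency markers. Their part in the values above was not tested, and in bulk RNA fewer cells of a type and less RNA per cell cannot be told apart.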

How the data were processed

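RNA-seq of 5 libraries of mouse embryonic stem cells, moved out of naive medium for 36 h, was used as 1 table. Its values are log2 fold changes that the authors deposited by library, 4 columns in all, per the file headers. Tools named in the submitters' processing notes are HISAT2, featureCounts, DESeq2 and bcl2fastq, with the build GRCm38 and no settings. The first column headings read DHAX30, taken as DHX30. Depth is unknown, so the precision of a single ratio is too.

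Signs were turned to siRNA over NC. limma 3.58.1 in R 4.3.3 was fitted to 12088 complete genes with NC as a column of zeros, 1 coefficient per group, 2 residual degrees of freedom and robust=TRUE. P-values were adjusted over all genes, with a threshold of 0.05. The test was tried on simulated data. Members and lists were chosen with earlier results of these data known. Named genes were the targets, the members, up to 4 genes per list on one side of NC in every library, taken by the highest minimum of the absolute ratio over libraries, and the 5 nearest to LATS2. A gene that this rule names among the kinase inhibitors is not reported here. Annotation was GENCODE M21 (12660 names matched), and 270 names had no match. Alternatives left out each library, blocked on the replicate number, kept incomplete genes, used robust=FALSE, centred libraries, removed length and GC trends over 9257 coding genes, or left out ratios over 3. Python 3.11.15, pandas 2.3.3, numpy 2.4.6 and matplotlib 3.10.9 were used.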

Additional observations from a re-analysis of the deposited data

Results flagged for a closer look

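CTNNA1, alpha-catenin of adherens junctions, lay above NC in both siDhx30 libraries (0.02 and 0.01) and below it in both siTfam libraries (-0.02 and -0.05), a difference of 0.0486 that did not pass the limma test (SE 0.14, adjusted p = 0.999). ASAP1, a listed YAP1 target, did likewise (0.09 and 0.03 against -0.08 and -0.26), a difference of 0.23 that did not pass either (SE 0.16, limma adjusted p = 0.999). Both siDhx30 libraries lay above both siTfam libraries in 12 of the 71 other pathway genes, these included, and in 14.7% of all genes.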

How the results depend on the processing

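The counts of 0 genes and 0 members called between siDhx30 and siTfam held in all 10 alternatives to the limma fit, which gave up to 921 genes (without siTfam replicate 1) an unadjusted p under 0.05, against 337. With the replicate block the LATS2 difference was 0.54 (SE 0.35) and 0 genes were called. Same-numbered libraries deviated together with a Pearson r of 0.25 across genes, but the labels do not say that a number marks a shared culture. Of 90 differences of members under these alternatives 81 kept their sign and 9 did not. The replicate block, keeping incomplete genes, robust=FALSE and leaving out large ratios returned the main difference of every member unchanged. Centring the libraries barely moved it. The 81 therefore include differences whose sign could not turn, and are no measure of how stable the signs were. All 9 that turned did so on leaving out 1 library or removing length and GC trends. Leaving out 1 library, the difference ran from -0.35 to 0.0810 for STK3, -0.25 to 0.0738 for STK4, -0.16 to 0.57 for MOB1B, -0.0261 to 0.14 for YAP1, -0.32 to 0.74 for TEAD1 and -0.0387 to 0.18 for TEAD2. With length and GC trends removed YAP1 lay at -0.00054, MOB1B at 0.0688 (from 0.20), TEAD1 at 0.0746 (from 0.21) and STK4 at -0.14 (from -0.09), and the other 5 members moved by less than 1.5 times. Between the libraries numbered 1, a comparison added after the data were seen, STK4 lay at 0.0938, YAP1 at -0.0890 and TEAD1 at -0.0415, and between those numbered 2 MOB1B lay at -0.14. The cause was not tested. The member median against NC ran from 0.11 to 0.26 in siDhx30 and from 0.0064 to 0.19 in siTfam with 1 library left out. Members below NC in every library numbered 1 to 2 with 1 library left out, where 25.3% to 29.5% of all genes were. At an absolute ratio of at least 0.1 they numbered 0, where 13.5% of all genes were below. A lone library of a group was assumed to vary like the others.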
